A study of Mus musculus with 2 samples.

Results

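The nuclear-encoded respiratory chain genes are the nuclear genes for subunits of the enzyme complexes that carry out oxidative phosphorylation in mitochondria, together with factors that assemble those complexes. They were taken as the mouse features whose symbols start with Ndufa, Ndufb, Ndufc, Ndufs, Ndufv, Sdha, Sdhb, Sdhc, Sdhd, Uqcr, Cox4i, Cox5, Cox6, Cox7, Cox8 or Atp5, which gave 97 of the 31053 mouse features. Of these, 38 were subunits of complex I, 4 of complex II, 8 of complex III, 18 of complex IV and 16 of complex V, the ATP synthase. The other 13 were the assembly factors Ndufaf1 to Ndufaf8 and Sdhaf1 to Sdhaf4 and a relative of the ATP synthase subunits, Atp5s, and they were kept apart from the sums over complexes. The symbol Atp5o stood under 2 gene identifiers that overlap on the same strand, 1 of them without a UMI in kept cells, so the 97 features carried 96 symbols.

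The T cells were sorted by flow cytometry on the T cell receptor β chain from B16 melanomas and from B16–IL-33 melanomas, a B16 line engineered to secrete the cytokine IL-33. The tumors grew in mice on the C57BL/6 background and were taken on day 9 after intradermal injection of 100000 tumor cells, with no treatment of the mice. Cells carried hashtag antibodies, with tags numbered 1 and 2 for each tumor type, and were pooled into a 5′ library that was sequenced for gene expression, hashtags and T cell receptors. The pool was 1 library, the labels do not state what the tags numbered 1 and 2 stand for, and no test between groups was made.

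Complex I oxidizes NADH, complex II oxidizes succinate, complex III passes electrons to cytochrome c and complex IV passes them to oxygen, while the ATP synthase makes ATP from the proton gradient that results. Most subunits are encoded in the nucleus and imported, and a small set, which includes central catalytic subunits, is encoded by mitochondrial DNA, so that all complexes except complex II need transcripts of both genomes. T cells enlarge their mitochondrial and glycolytic capacity when they divide.

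The gene expression library held 14035 cell barcodes and 43420305 mouse UMIs, where a UMI is 1 captured RNA molecule. Barcodes with 200 to 2500 detected mouse genes and under 5% mitochondrially encoded UMIs were kept, which left 9077 of 14035 (64.7%) with 26606370 UMIs. The hashtag library shared 11756 of the 14035 barcodes and 8945 of the 9077 kept ones, and 5448 of 9077 (60.02%) kept barcodes had an assembled T cell receptor contig. Cells were put in classes by transcripts alone: 1259 CD8 cells (more Cd8a and Cd8b1 UMIs than Cd4 and Foxp3 UMIs), 2609 regulatory T cells or Treg (Foxp3 without Cd8a or Cd8b1), 1769 conventional CD4 cells or Tconv (Cd4 without Foxp3, Cd8a or Cd8b1), 96 NKT cells (Zbtb16) and 129 myeloid cells (Csf1r without Cd3e). The median depth was 3464 UMIs a cell in CD8, 2780.0 in Treg, 2498 in Tconv, 2980.5 in NKT and 4863 in myeloid cells. Levels are counts per 10⁶ mouse UMIs (CPM) of the summed cells of a class, with exact 95% Poisson intervals, and ratios carry exact conditional binomial intervals in parentheses. These intervals cover counting error only.

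Genes that define a class cannot serve as a check of it, and Cd3e and Csf1r, used for myeloid cells, are among the markers summed here. The 4 T cell markers Cd3d, Cd3e, Cd3g and Trac summed to 3426 CPM in CD8, 3711 in Treg, 3385 in Tconv and 2837 in NKT cells, against 119 in myeloid cells. The 5 Treg markers summed to 4341 CPM in Treg, 1333 in Tconv, 723 in CD8, 708 in NKT and 129 in myeloid cells. In Tconv Foxp3 was at 0 by definition, and Tnfrsf18 was at 520 CPM and Ctla4 at 421. Treg without a captured Foxp3 UMI may thus stand in Tconv, and their part was not tested. The 9 myeloid markers were all seen in myeloid cells and summed to 17833 CPM, with Lyz2 the most abundant at 6679. In the other classes the same list summed to 502 CPM in CD8, 633 in Treg, 555 in Tconv and 576 in NKT cells, where Adgre1 and Itgam were at 0 (each at most 10.9 CPM). The NKT class was mixed: 18 of 33 (54.5%) of its cells with a productive alpha chain carried the TRAV11 and TRAJ18 join of invariant NKT cells, and 21 of its 96 cells were also Tconv, 8 also Treg and 6 also CD8 by the same definitions. Among myeloid cells 33 of 129 (25.6%) held a UMI of Cd3d, Cd3e or Cd3g, while 0 of 129 had a productive alpha chain, which allows a share of up to 2.82%, although the sort had selected cells with a T cell receptor. A productive beta chain was seen in 2 of the 129, and 9 of the 129 were also Treg, 5 also CD8, 4 also Tconv and 1 also NKT. Barcodes that may hold more than 1 cell were kept: 428 of 9077 (4.72%) had at least 2 productive beta chains and 54 stood in more than 1 class. Without the former the summed subunits below were at 1.109 of Tconv in CD8 and 1.052 in Treg, and without the latter at 1.107 and 1.048. The 4 melanoma markers summed to 11.5 CPM in CD8, 13.2 in Treg, 14.5 in Tconv, 2.95 in NKT and 15.4 in myeloid cells, with Dct the most abundant in each class except myeloid cells, where it was Pmel. The 3 B cell markers were at 3.17 CPM in CD8, 3.99 in Treg and 7.71 in myeloid cells, and at 0 in Tconv (at most 0.735) and NKT cells (at most 10.9). The 3 fibroblast markers were at 0.594 CPM in CD8, 0.968 in Treg and 0.398 in Tconv, and at 0 in NKT (at most 10.9) and myeloid cells (at most 5.68). The 3 NK markers summed to 342 CPM in CD8, 18.2 in Treg, 61.7 in Tconv and 162 in NKT cells, with Klrd1 the most abundant in each. The part of RNA from other cell types in the respiratory chain levels was not tested.

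Over all kept cells the 84 nuclear-encoded subunits summed to 23934 CPM (95% interval 23875 to 23993). The ATP synthase gave 7494 CPM, complex I 6743, complex IV 6684, complex III 2669 and complex II 345, while the 12 assembly factors and Atp5s together gave 389. Transcripts of a few small subunits made up much of this sum: the 10 most abundant subunits held 37.1% of the UMIs and the 20 most abundant 56.95%, against a median subunit at 204 CPM. Of the 97 members, 86 had at least 200 UMIs in kept cells and 4 had none. Each UMI of this 5′ library is 1 captured 5′ end, so levels of different genes are compared as CPM without division by length.

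In complex I the most abundant transcripts were those of accessory subunits, which surround the catalytic core: Ndufa13 at 491 CPM, Ndufa6 at 439.9 and Ndufa2 at 375. Complex II, which also acts in the TCA cycle, had the lowest sum, with its iron-sulfur subunit Sdhb at 152 CPM, its flavoprotein Sdha at 78.2, and its membrane anchors Sdhd at 66.9 and Sdhc at 47.8.

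In complex III the hinge protein Uqcrh stood alone at 1119.5 CPM, ahead of the small subunits Uqcrq at 356 and Uqcr10 at 282. The large core proteins of this complex were lower, Uqcrc1 at 107 CPM and Uqcrc2 at 95.7, and the Rieske iron-sulfur protein Uqcrfs1 was at 219.7. In complex IV the small membrane subunit Cox8a reached 1151 CPM, the regulatory subunit Cox4i1 1084 and Cox7c 787. In the ATP synthase the epsilon subunit of the central stalk, Atp5e, was the most abundant of all members at 1205 CPM. The catalytic head, Atp5a1 and Atp5b, was nearly even at 335 and 336 CPM. Summed by module, a grouping made after the levels were seen, the central stalk gave 2103 CPM, the peripheral stalk 1642, the proton-carrying c ring 1622, the membrane accessory subunits 1456 and the catalytic head 671.

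Several subunits come as isoforms from separate genes, and in these cells most tissue-restricted forms were rare or absent. The ubiquitous Cox4i1 was at 1084 CPM and Cox4i2, known for lung, at 0.864, with its highest class level of 12.3 in myeloid cells. Cox6a1 was at 363 CPM and its heart and muscle form Cox6a2 at 0.489, while Cox6b1 was at 567 and its testis form Cox6b2 at 1.88. Cox7a2 was at 410.0 CPM and its relative Cox7a2l at 334. The muscle form Cox7a1 was at 3.35 CPM over all kept cells and at 27.7 in myeloid cells. Cox7b was at 363 CPM, and Cox7b2, Cox8b and Cox8c had no UMI, which puts each under 0.139 CPM. Ndufa4, named for complex I although its protein is now assigned to complex IV, was at 368 CPM, and its hypoxia-induced relative Ndufa4l2 at 0.226 over all kept cells and 4.62 in myeloid cells. The 3 genes for the c ring, whose mature proteins are the same, were all present, with Atp5g2 at 772 CPM, Atp5g3 at 605 and Atp5g1 at 246.

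The first comparison set the classes side by side, with Tconv as the common reference. The summed nuclear-encoded subunits were highest in CD8 at 25738 CPM (25599 to 25879), followed by Treg at 24368 CPM (24262 to 24475), myeloid cells at 24214 CPM (23837 to 24596), Tconv at 23231 CPM (23098 to 23365) and NKT cells at 21812 CPM (21318 to 22315). The intervals of Treg and myeloid cells overlapped, and those of the other neighbours in this order did not. The 3269 kept cells in no class were at 22742 CPM (22635 to 22851). The ratio to Tconv was 1.11 (1.10 to 1.12) in CD8, 1.05 (1.04 to 1.06) in Treg, 1.04 (1.03 to 1.06) in myeloid cells and 0.939 (0.917 to 0.961) in NKT cells. The order depended on the denominator, and ribosomal protein genes took 34.2% of UMIs in CD8, 25.3% in Treg, 32.1% in Tconv, 35.5% in NKT and 19.2% in myeloid cells. Relative to UMIs outside ribosomal protein and mitochondrially encoded genes, the ratio to Tconv was 1.15 in CD8 and turned to 0.944 in Treg and 0.866 in myeloid cells, while it was 0.998 in NKT cells, so that CD8 alone was above Tconv on both scales. NKT cells were also at 1.006 of Tconv when cells with more than 2500 detected genes were kept. The median of all genes tested was at 0.926 of Tconv in CD8, 1.08 in Treg, 0.776 in myeloid cells and 0.955 in NKT cells, so that against the median gene the subunits stood higher in CD8 and myeloid cells and lower in Treg, while in NKT cells the counting interval of the subunits included it.

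In CD8 the ratio to Tconv differed by complex. Complex IV was at 7354 CPM in CD8 and 6335 in Tconv, a ratio of 1.16 (1.14 to 1.18). The ATP synthase was at 8211 and 7313 CPM, a ratio of 1.12 (1.11 to 1.14). Complex I was at 7096 and 6597 CPM, a ratio of 1.08 (1.06 to 1.09), and complex III at 2749 and 2646, a ratio of 1.04 (1.01 to 1.06). Complex II was at 329 and 340.2 CPM, a difference not detectable at this depth, with a ratio of 0.967 (0.903 to 1.04) that was 1 on the other denominator. CD8 was above Tconv in each of the 11 complex IV subunits with at least 200 UMIs and in 14 of 15 of the ATP synthase, 31 of 37 of complex I, 6 of 8 of complex III and 2 of 4 of complex II, where 35.1% of all genes tested were.

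In Treg the sums were 6904 CPM for complex I, 370.1 for complex II, 2759 for complex III, 6775 for complex IV and 7560.2 for the ATP synthase. All 5 were above Tconv, from 1.03 for the ATP synthase to 1.09 for complex II, and all 5 were below it without ribosomal protein and mitochondrially encoded genes in the denominator, from 0.93 to 0.979. In myeloid cells the complexes spread more, with complex IV at 7363 CPM, a ratio of 1.16 (1.13 to 1.20) that turned to 0.965 on the other scale, and complex III at 2538, a ratio of 0.959 (0.911 to 1.01). NKT cells were below Tconv by CPM in complex I, at 5998 CPM and a ratio of 0.909 (0.869 to 0.951), and in complex III, at 2362 and 0.893 (0.83 to 0.959). On the other scale these ratios were closer to 1, at 0.967 and 0.949, given without intervals, and the complex IV ratio of 0.943 turned to 1.003. Among the 3 T cell classes and 75 subunits with at least 200 UMIs, the highest level was in CD8 for 48, in Treg for 19 and in Tconv for 8, and the lowest in Tconv for 44, in Treg for 25 and in CD8 for 6. On the other denominator, which like the shares of all genes was added here after values were seen, CD8 was still the most often highest, for 65, and lowest for 1, while the places of Treg and Tconv turned, with the lowest level in Treg for 55 and in Tconv for 19. Of all 7939 genes with at least 200 UMIs, 20.7% were highest in CD8, 21.3% lowest in Tconv and 22.2% lowest in Treg by CPM, and 31.3%, 17.5% and 39.2% on the other denominator.

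**Figure D1:**
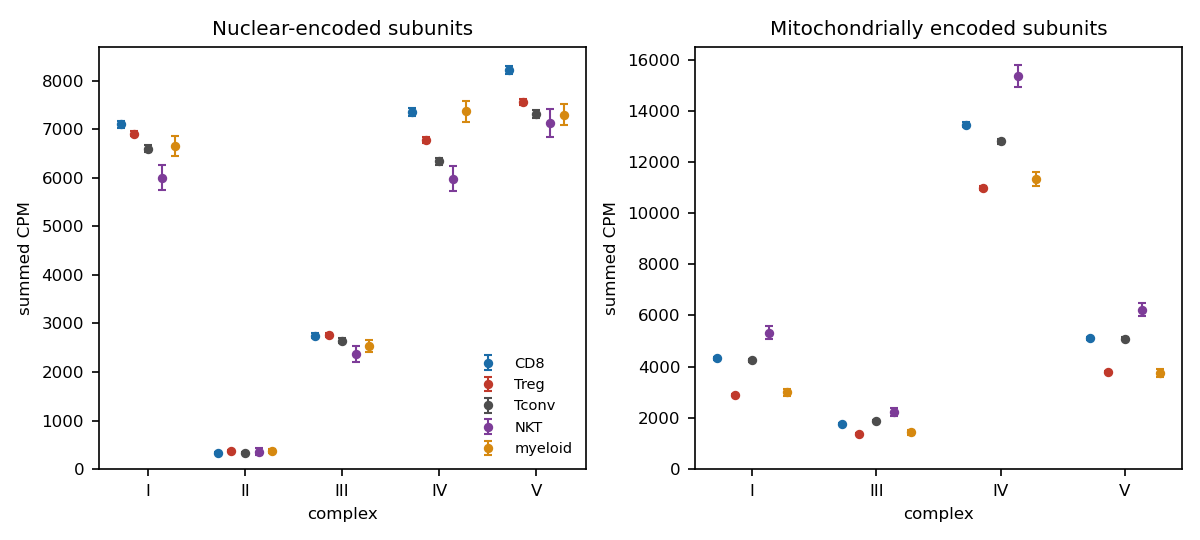
Summed CPM of nuclear-encoded subunits (left) and mitochondrially encoded subunits (right) of each complex in 5 cell classes, with exact 95% Poisson intervals for counting error. CD8 had 7354 CPM of nuclear-encoded complex IV against 6335 in Tconv, and Treg had 10982 CPM of its mitochondrially encoded subunits against 12803 in Tconv.

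The levels differed with depth and with cycling. In CD8 the subunits had higher CPM across bins of depth, from 21474 in cells with under 1500 UMIs to 27349 in cells with 5000 or more. In Treg they were at 18279.7 and 26239.8 CPM in the same bins, and in Tconv at 18488 and 26236. Myeloid cells did not share this, with 25626 CPM at 1500 to 3000 UMIs and 23914 at 5000 or more. Within cells of 3000 to 5000 UMIs, CD8 stood at 24377 CPM, Treg at 24394 and Tconv at 23429. With each cell thinned at random to 1500 UMIs, which left 7074 of 9077 cells, the median share of UMIs on subunits was 2.47% in CD8, 2.40% in Treg, 2.27% in Tconv, 2.20% in NKT and 2.47% in myeloid cells. A single CD8 cell then showed a median of 25 different subunits, with 10% of cells at 19 or fewer and 10% at 32 or more. Cycling cells, those with at least 2 UMIs over 10 mitosis and replication genes, made up 15.0% of CD8, 11.0% of Treg and 6.39% of Tconv. Subunits were at 29367 CPM in cycling and 24621 in other CD8 cells, a ratio of 1.19 (1.18 to 1.21). The ratio was 1.09 (1.08 to 1.10) in Treg, at 26158 against 24020.2 CPM, and 1.21 (1.18 to 1.23) in Tconv, at 27434 against 22759. Cycling cells were the deeper ones, with a median of 6319 against 3118 UMIs in CD8, and the part of depth and of cycling in the class levels was not tested.

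The 13 genes of the mitochondrially encoded subunits summed to 29113 CPM (28541 to 29693) in NKT cells, 24654 CPM (24518 to 24792) in CD8, 24004 CPM (23869 to 24140.2) in Tconv, 19511 CPM (19173 to 19854) in myeloid cells and 19050.3 CPM (18956 to 19145) in Treg. This order depended on the limit of 5% mitochondrially encoded UMIs, which selects on the same genes: without it, a level added after values were seen, CD8 were highest at 36005 CPM, followed by NKT cells at 31114, Tconv at 29897, Treg at 22833 and myeloid cells at 22524. Per genome, UMIs of nuclear-encoded over mitochondrially encoded subunits were 1.28 (1.27 to 1.29) in Treg, 1.24 (1.21 to 1.27) in myeloid cells, 1.04 (1.04 to 1.05) in CD8, 0.968 (0.96 to 0.976) in Tconv and 0.749 (0.727 to 0.772) in NKT cells, a balance that needs no denominator. Without the limit the balance was 1.06 in myeloid cells, 1.04 in Treg, 0.751 in Tconv, 0.698 in NKT cells and 0.681 in CD8, so that CD8 over Tconv turned from 1.079 to 0.908, while NKT over Tconv was 0.774 and 0.929 and Treg over Tconv 1.322 and 1.389. With the limit, NKT cells with the invariant chain were at 0.701 (0.655 to 0.749) and NKT cells with another alpha chain at 0.867 (0.799 to 0.94), over 18 and 15 cells. The balance also differed with cycling, a split of the balance added after values were seen, at 0.982 (0.973 to 0.991) in non-cycling and 1.26 (1.24 to 1.28) in cycling CD8, at 1.26 (1.248 to 1.27) and 1.40 (1.37 to 1.42) in Treg, and at 0.947 (0.939 to 0.955) and 1.16 (1.13 to 1.19) in Tconv.

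Each of the 13 mitochondrially encoded genes was lower in Treg than in Tconv, on both denominators and with or without the mitochondrial limit, while 63.8% of all genes tested were higher by CPM, with ratios from 0.614 for mt-Nd2 to 0.928 for mt-Nd6, and 10 of them were at most 0.8 of Tconv, where 9.92% of all genes tested were. The complex I genes spread the most: mt-Nd2, a membrane subunit of the proton-pumping arm, was at 461 CPM in Treg and 751 in Tconv, and mt-Nd1, near the quinone site, at 686 and 985. The complex IV genes were closer, with the catalytic subunit mt-Co1 at 5694 and 6393 CPM, mt-Co2 at 3024 and 3537, and mt-Co3 at 2264 and 2873. Cytochrome b of complex III, mt-Cytb, was at 1370.5 CPM in Treg and 1862 in Tconv. In the ATP synthase mt-Atp6 was at 3523 and 4723 CPM and mt-Atp8 at 277 and 374. In NKT cells 12 of the 13 were above Tconv on both denominators, where 42.3% of all genes tested were by CPM, with mt-Nd6 at 0.771, and without the mitochondrial limit 10 of 13 were above Tconv by CPM. In myeloid cells 12 of the 13 were below Tconv by CPM, where 34.5% of all genes tested were above, and all 13 on the other denominator. Of these, 8 were at most 0.8 of Tconv by CPM, where 51.9% of all genes tested were. In CD8 10 of 13 were above Tconv by CPM, where 35.1% of all genes tested were, and 13 without the mitochondrial limit. Over all kept cells mt-Co1 was the most abundant at 6141 CPM and mt-Nd6, which lies alone among them on the other DNA strand, the least at 49.8, with mt-Nd3 at 131, mt-Nd4 at 674, mt-Nd4l at 954 and mt-Nd5 at 415.

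**Figure D2:**
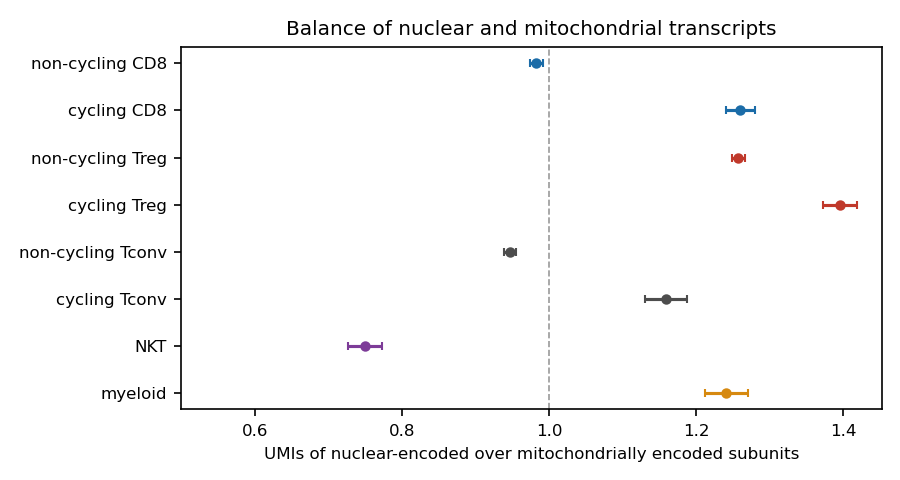
UMIs of nuclear-encoded over mitochondrially encoded subunits in non-cycling and cycling T cells and in NKT and myeloid cells, with exact 95% conditional binomial intervals for counting error. The balance was 0.947 in non-cycling and 1.16 in cycling Tconv.

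Cox7a2l stood apart from the complex IV sum in CD8, Treg and myeloid cells. Among the 11 complex IV subunits tested it had the lowest ratio to Tconv in CD8, at 1.02 beside a sum at 1.16. In NKT cells it had the highest, at 1.10 beside a sum at 0.943. It was at 369.7 CPM in CD8, 302 in Treg, 363 in Tconv, 399 in NKT and 160.3 in myeloid cells. Treg stood at 0.833 (0.784 to 0.885) of Tconv and 0.749 on the other denominator, where the sum of complex IV was at 1.07 and turned to 0.962. Its relative Cox7a2, a structural subunit of complex IV, was at 466 CPM in CD8 and 365 in Tconv, a ratio of 1.28 (1.20 to 1.36).

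Single members were counted between classes when they had at least 200 UMIs in both groups together. Of 81 members with enough UMIs in CD8 and Tconv, 4 were at least 25% higher, where 7.72% of all genes tested were, and 2 were at most 0.8 of the other, where 24.3% of all genes tested were. These members had a median ratio of 1.09, and all 4987 genes tested one of 0.926. With ribosomal protein and mitochondrially encoded genes left out of the denominator, a scaling added to these counts after the data were seen, 5 were higher and 2 lower by that much, beside 9.81% and 19.9% of all genes, with medians of 1.13 and 0.958. Both shares were below those of all genes, which were not matched to the members for abundance. Of 75 subunits tested, 64 were above Tconv by CPM, where 35.1% of all genes tested were, and 4 were at least 25% higher. The higher sum in CD8 was thus spread over many subunits with small differences. The higher members were Cox5a, Cox5b, Cox7a2 and Ndufv1, and the lower ones Sdha and Sdhaf1. Cox5a, a matrix-side subunit of complex IV, was at 488 CPM in CD8 and 347 in Tconv, a ratio of 1.41 (1.32 to 1.495). Its zinc-binding neighbour Cox5b was at 630.0 and 487 CPM, a ratio of 1.29 (1.23 to 1.37). Ndufv1, the subunit that binds NADH, was at 56.2 and 42.6 CPM, a ratio of 1.32 (1.10 to 1.58). Sdha was lower in CD8, at 70.5 against 92.2 CPM and a ratio of 0.764 (0.664 to 0.879), and the complex I assembly factor Ndufaf8 was at 62.9 and 72.7, a ratio of 0.866 (0.743 to 1.01).

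Of 81 members with enough UMIs in Treg and Tconv, 5 were at least 25% higher, where 24.4% of all genes tested were, and 2 were at most 0.8 of the other, where 9.92% of all genes tested were. The median ratio was 1.04 over these members and 1.08 over all 6046 genes tested. Under the other scaling 1 was higher and 12 lower by that much, beside 13.9% and 18.7% of all genes, with medians of 0.933 and 0.967. By CPM both shares were below those of all genes, and on the other denominator the lower share came closer to that of all genes. The higher members were Ndufa11, Ndufaf3, Ndufb7, Sdhaf1 and Sdhb, and the lower ones Ndufaf4 and Sdha, so that the flavoprotein and the iron-sulfur subunit of complex II went opposite ways. Sdhb was at 179 CPM in Treg and 135 in Tconv, a ratio of 1.32 (1.21 to 1.45) and 1.19 on the other denominator, and Sdha at 73.0 and 92.2, a ratio of 0.791 (0.7 to 0.895). Ndufb7 was at 343 and 255 CPM, a ratio of 1.35 (1.26 to 1.44). Sdhaf1, which helps insert the iron-sulfur clusters of Sdhb, had the largest ratio, 148 CPM in Treg against 95.4 in Tconv, or 1.56 (1.40 to 1.73), and 1.40 on the other denominator. It was lower in CD8, at 62.3 CPM and 0.653 (0.565 to 0.755) of Tconv, and lowest in myeloid cells, at 35.4 CPM and 0.371 (0.233 to 0.564) of Tconv. Of the complex I assembly factors, 2 differed by that much in opposite directions, with Ndufaf3 at 61.5 and 46.2 CPM, a ratio of 1.33 (1.14 to 1.56), and Ndufaf4 at 22.5 and 28.7, a ratio of 0.785 (0.628 to 0.983).

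The assembly factors and Atp5s as a group summed to 347 CPM in CD8, 437 in Treg, 383 in Tconv, 419 in NKT and 271 in myeloid cells. Their ratio to Tconv was 1.14 (1.08 to 1.21) in Treg, 0.906 (0.849 to 0.967) in CD8 and 0.708 (0.604 to 0.827) in myeloid cells, and 1.03 and 0.938 in Treg and CD8 on the other denominator. These differences in Treg and CD8 came with Sdhaf1: without it, a sum added after the values were seen, the ratios were 1.003 (0.94 to 1.07) in Treg and 0.99 (0.92 to 1.07) in CD8, which turned to 0.903 and 1.02 on the other denominator, and 0.82 (0.69 to 0.97) in myeloid cells. Sdhaf1 gave the largest part at 110.0 CPM over all kept cells, followed by Ndufaf8 at 64.9 and Ndufaf3 at 49.4. The others ranged from 5.79 CPM for Ndufaf6 to 36.6 for Sdhaf2, which attaches the flavin of Sdha.

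Of 78 members with enough UMIs in myeloid cells and Tconv, 18 were at least 25% higher, where 23.6% of all genes tested were, and 15 were at most 0.8 of the other, where 51.9% of all genes tested were. These members had a median ratio of 1.05, and all 3473 genes tested one of 0.776. With the other denominator 6 were higher and 32 lower by that much, beside 17.0% and 63.5% of all genes, with medians of 0.869 and 0.645. Ndufc1, a small membrane subunit of complex I, was at 209.6 CPM in myeloid cells and 118 in Tconv, a ratio of 1.77 (1.46 to 2.14). Uqcrq was at 546 and 325 CPM, a ratio of 1.68 (1.49 to 1.88), and Atp5g1 at 402 and 247, a ratio of 1.63 (1.42 to 1.86). Uqcrh, of the same complex as Uqcrq, went the other way, at 647 and 1139 CPM and a ratio of 0.568 (0.513 to 0.627), and Cox7a2l was at 0.442 (0.359 to 0.539) of Tconv. By CPM the share of members that were higher was near that of all genes and the share that were lower was smaller, and members of the same complex lay on both sides. Of 77 members with enough UMIs in NKT cells and Tconv, 7 were at least 25% higher, where 13.3% of all genes tested were, and 13 were at most 0.8 of the other, where 26.6% of all genes tested were. The median ratio was 0.928 over these members and 0.955 over all 3254 genes tested. Under the other scaling 7 were higher and 7 lower by that much, beside 19.0% and 20.8% of all genes, with medians of 0.987 and 1.02. Ndufv1 was at 67.9 CPM in NKT cells and 42.6 in Tconv, a ratio of 1.59 (0.988 to 2.45), Sdhd at 1.42 (0.937 to 2.09) of Tconv, and the complex I accessory subunit Ndufa8 at 1.38 (1.03 to 1.82). Ndufa1 was at 136 and 224 CPM, a ratio of 0.606 (0.441 to 0.814), and Ndufb9 at 0.611 (0.438 to 0.832) of Tconv. The intervals of Ndufv1 and Sdhd include 1, and both shares were below those of all genes.

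The last comparison asked whether the subunits in Treg differed between B16 and B16–IL-33 tumors. A kept cell was given a tumor when it had at least 1 hashtag UMI and all came from tags of 1 tumor type, which placed 939 of 9077 (10.3%) and left most cells without a tumor. In the shared barcodes the B16 tags numbered 1 and 2 gave 413 and 773 UMIs and the B16–IL-33 tags 75 and 117. With so few tag UMIs, a label could rest on 1 of them. A stray tag UMI was not told apart from one on the cell, so the tumor of a cell is uncertain. Subunits were at 24792 CPM (24475 to 25112) in 245 B16 Treg and 23996 CPM (23288 to 24720.4) in 55 B16–IL-33 Treg, a ratio of 0.968 (0.937 to 0.9998), a difference that turned to 1.005 without cycling cells and to 1.242 with at least 2 tag UMIs. The groups also differed in depth, with a median of 3401 UMIs in B16 and 2467 in B16–IL-33 Treg, in cycling, at 13.5% and 9.09%, and in the T cell markers, at 4104 and 3202 CPM, and within cells of 2000 to 4000 UMIs the ratio was 0.896. By single tag, Treg were at 24598 and 24921 CPM in B16 and at 22602 and 24531 in B16–IL-33, over 80, 160, 18 and 37 cells, so that the B16–IL-33 tags lay farther apart than the tumors did. The balance of nuclear over mitochondrially encoded UMIs was 1.33 (1.31 to 1.36) in B16 and 1.32 (1.26 to 1.38) in B16–IL-33 Treg, with overlapping intervals. In CD8 the subunits were at 24784 CPM in 103 B16 cells and 26413 in 19 B16–IL-33 cells, and in Tconv at 23503 in 164 and 22447 in 17 cells. The myeloid marker list summed to 1184 CPM in B16 Treg, with Ctss the most abundant, and to 1479.8 in B16–IL-33 Treg, with Tyrobp the most abundant and C1qa and Adgre1 at 0 (each at most 20.4 CPM), and its part in the ratio was not tested.

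Of 68 members with at least 100 UMIs in B16–IL-33 and B16 Treg, 4 were at least 25% higher, where 16.9% of all genes tested were, and 13 were at most 0.8 of the other, where 22.2% of all genes tested were. These members had a median ratio of 0.973, and all 1553 genes tested one of 0.964. With the other denominator 4 were higher and 13 lower by that much, beside 15.6% and 23.5% of all genes, with medians of 0.958 and 0.949. Ndufa4 was at 469 CPM in B16–IL-33 and 360.3 in B16 Treg, a ratio of 1.30 (1.01 to 1.66). Ndufa1, a membrane subunit of complex I, was at 326 and 251 CPM, a ratio of 1.30 (0.959 to 1.73), and its interval includes 1. Ndufa11 and Ndufc1, of the same arm, tied with it, at 1.30 (0.942 to 1.76) and 1.30 (0.803 to 2.03). Ndufa10 was at 44.2 CPM, from 8 UMIs, and 99.9, a ratio of 0.442 (0.185 to 0.907), Ndufb6 at 0.537 (0.293 to 0.916) of B16 and Sdhb at 0.659 (0.416 to 1.002). The share of members that were lower was near that of all genes and the share that were higher was smaller.

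Other genes of the same metabolism were read from lists that do not overlap the members. The 12 glycolysis genes summed to 8435 CPM in Treg and 5397 in Tconv, a ratio of 1.56, with 11 of 11 genes tested at least 25% higher, where 24.4% of all genes tested were. In CD8 the same list was at 1.07 of Tconv, with 0 of 11 that much higher, where 7.72% of all genes tested were, and in myeloid cells at 2.37. The 12 TCA cycle genes were at 1.01 of Tconv in CD8, 0.782 in myeloid cells and 1.03 in Treg, where it turned to 0.931 on the other denominator. In Treg and myeloid cells glycolysis thus stood farther above Tconv than the subunits did, at 1.05 and 1.04. On the other denominator glycolysis was at 1.41 in Treg and 1.97 in myeloid cells, and the subunits were below 1 in both. Between tumors, Treg of B16–IL-33 were at 0.789 (0.746 to 0.835) of B16 for glycolysis, with 5 of 10 genes at most 0.8 of B16, where 22.2% of all genes tested were. For the TCA cycle they were at 0.739 (0.599 to 0.905), and only 2 of the 12 genes had enough UMIs to be tested singly. No alternative to the cells or tags was run for these lists. The subunit ratio of the same groups turned without cycling cells and with at least 2 tag UMIs. Cycs, the cytochrome c that joins complexes III and IV, was at 239.7 CPM in CD8, 238 in Treg, 197 in Tconv, 224 in NKT and 475 in myeloid cells. Cyc1, the cytochrome of complex III that the symbol rule leaves out, was at 75.0 CPM over all kept cells, and Cycs and Cyc1 together were at 1.19 of Tconv in CD8.

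Among assembly genes outside the members, the 20 genes for complex III and IV assembly summed to 1.12 of Tconv in CD8 and to 1.09 in Treg, which turned to 0.977 on the other denominator. The median gene of that list was at 1.02 in CD8, and the sum at 0.892 (0.799 to 0.994) in NKT and 0.931 (0.86 to 1.01) in myeloid cells. Cox17, a copper chaperone of complex IV, was at 286 CPM in CD8 and 188 in Tconv. The list of 5 genes with the ATP synthase inhibitor Atpif1 was at 1.11 of Tconv in CD8, 1.45 in myeloid cells, 0.796 (0.672 to 0.937) in NKT cells and 1.09 in Treg, which turned to 0.985 on the other denominator, and Atpif1 itself at 179 CPM in CD8 and 139 in Tconv. The 8 genes of mitochondrial transcription and translation summed to 1.09 of Tconv in CD8 and 1.03 in Treg, with intervals that include 1 and a Treg ratio that turned to 0.929 on the other denominator, and Tfam, which packages and transcribes mitochondrial DNA, was at 26.5, 30.0 and 33.5 CPM in CD8, Treg and Tconv. Of the 9 regulators, Ppargc1a, a coactivator of mitochondrial genes, was at 0.564 CPM over all kept cells, Nrf1 at 29.9, Gabpa at 20.4 and Yy1 at 94.5. The regulator list was at 1.15 of Tconv in Treg and at 0.998 (0.919 to 1.08) in CD8, an interval that includes 1. On the other denominator it was at 1.03 in both.

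The members shared features of their genes that the symbol rule did not use. All 97 were protein coding and were found in GENCODE vM21 (GRCm38), on 19 chromosomes, with 10 on chromosome 7 and 3 on X, so they lay scattered through the genome. Subunits were short, with a median longest coding length of 409.5 bases against 1173 over all 21897 protein-coding features. The start of another gene on the opposite strand lay within 1000 bases upstream for 23 of 97 members (23.7%), against 1488 of 21897 (6.80%) of all. Sdha (ENSMUSG00000021577, chr13:74322254-74350280), for example, starts 29 bases from Ccdc127, and Cox7a2l lies at chr17:83501918-83517330. In 13 members the gene overlapped another on the same strand, such as Ndufa13 and Yjefn3, and the share over all features was not counted. Among the 13 are the Atp5o features, which overlap each other, and Ndufa10, which overlaps Mir6900.

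The promoters of the members were searched for motifs of factors known to bind such genes. RefSeq promoters of GRCm38.p6, from 250 bases before to 50 bases after the start, were matched by symbol for 80 members among 27025 genes, and both strands were read. In the summed counts, the NRF1 motif GCGCANGCG was found in 24 of 80 members (30.0%) and in 7.03% of all. The YY1 motif AAGATGGC was found in 11 of 80 members (13.8%) and in 3.19% of all, the GABP motif CCGGAAGT in 5 of 80 members (6.25%) and in 4.31% of all, and the E-box CACGTG in 6 of 80 members (7.50%) and in 8.09% of all. Any of the NRF1, YY1 and GABP motifs was present in 37 of 80 members (46.2%) and in 13.2% of all. A listing of matches member by member held fewer of the 80 members with NRF1, YY1 or GABP than these counts. In it, YY1 stood for Atp5j alone, while the E-box again stood for 6 members. This difference was not resolved, so the shares of members are not read against those of all genes. A promoter with several motifs was counted for each, and the NRF1 motif is close to its own reverse complement, so that a site can match on both strands. A match describes the letters, and binding was not tested. Upstream bases outside every annotated gene are shown for 3 subunits with a motif, for Cox6a1 of complex IV (chr5:115348982-115349129, minus strand), for Uqcr11 of complex III (chr10:80406831-80406980, minus strand) and for Atp5h of the ATP synthase (chr11:115419963-115420112, minus strand), and for Cox7a2, which stood higher in CD8 than in Tconv without a match upstream (chr9:79759879-79760028, minus strand), 5′ to 3′ on the strand of the gene, in GRCm38.p6, with motifs in capitals:
Cox6a1: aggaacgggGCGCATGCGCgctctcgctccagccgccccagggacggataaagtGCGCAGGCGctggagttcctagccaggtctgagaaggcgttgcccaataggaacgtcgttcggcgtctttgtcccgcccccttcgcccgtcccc
Uqcr11: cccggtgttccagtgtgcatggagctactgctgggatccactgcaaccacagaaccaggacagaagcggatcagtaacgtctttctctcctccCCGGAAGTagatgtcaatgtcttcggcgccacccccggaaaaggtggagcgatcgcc
Atp5h: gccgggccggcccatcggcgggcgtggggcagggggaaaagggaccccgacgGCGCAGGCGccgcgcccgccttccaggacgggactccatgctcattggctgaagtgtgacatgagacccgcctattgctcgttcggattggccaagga
Cox7a2: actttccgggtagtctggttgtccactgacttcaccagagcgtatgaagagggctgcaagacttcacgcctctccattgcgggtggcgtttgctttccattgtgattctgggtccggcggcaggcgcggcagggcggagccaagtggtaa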

How the data were processed

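The authors deposited counts: UMIs for each barcode and gene or hashtag, and contigs with their UMIs, made with Cell Ranger on a combined human and mouse (mm10) reference. Human features were left out of all totals. Members and lists were chosen with earlier results of these data known. UMIs were summed per class with Python 3.11.15, NumPy 2.4.6, SciPy 1.17.1 and pandas 2.3.3, with figures from Matplotlib 3.10.9, and the ratio code was tested on simulated data. Named genes were the 3 most abundant subunits of each complex, the 3 highest and 3 lowest ratios of each comparison of classes or tumors (at least 200 UMIs, 100 for tumors), all isoform families, complex II and the mitochondrially encoded subunits. Other genes, and values the report names as such, were added after values were seen. The planned comparison of activated with resting cells, and 1 of the genes named by this rule, are not reported here. Alternatives changed cell limits, denominators, tags, folds and minimums.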

Additional observations from a re-analysis of the deposited data

Results flagged for a closer look

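Between tumors, subunits of B16–IL-33 over B16 cells were at 0.968 in Treg, which turned to 1.005 without cycling cells and to 1.242 with at least 2 tag UMIs, and at 1.066 in CD8, and the difference between these ratios was not tested. By single tag, CD8 were at 25128 and 24689.5 CPM in B16 and at 28966 and 23905 in B16–IL-33, the latter from 7 and 12 cells, of which 57.1% and 16.7% cycled.

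Human features with the same symbol starts, which the mouse levels do not use, held 20 UMIs over 105 features, of 8562 human UMIs in all, which is above the limit of 3 counts that a count of 0 allows.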

How the results depend on the processing

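Across 75 alternatives to the ratios, 39 stayed within the counting interval, 30 moved past it without reversing and 6 reversed; of 30 alternatives to the counts, 14 stayed within 1.5 times. For summed subunits, CD8 over Tconv kept its direction in every alternative. Without an upper gene limit, the ratio was 1.147 in CD8 over Tconv, 1.029 in Treg over Tconv, 1.006 in NKT over Tconv (reversed) and 0.858 in B16–IL-33 Treg. Without a mitochondrial limit, the ratio was 1.093 in CD8 over Tconv, 1.061 in Treg over Tconv, 0.967 in NKT over Tconv and 1.068 in myeloid over Tconv. As means over cells, the ratio was 1.127 in CD8 over Tconv, 0.986 in NKT over Tconv and 1.122 in myeloid over Tconv. Within 2000 to 4000 UMIs, the ratio was 1.065 in CD8 over Tconv, 1.068 in Treg over Tconv, 1.123 in myeloid over Tconv and 0.896 in B16–IL-33 Treg. Without ribosomal protein and mitochondrially encoded genes in the denominator, the ratio was 1.146 in CD8 over Tconv, 0.944 in Treg over Tconv (reversed), 0.998 in NKT over Tconv and 0.866 in myeloid over Tconv (reversed). Without cycling cells, the ratio was 1.082 in CD8 over Tconv, 1.064 in myeloid over Tconv and 1.005 in B16–IL-33 Treg (reversed). As the median subunit ratio, the ratio was 1.099 in CD8 over Tconv and 1.037 in Treg over Tconv. With tags numbered 1, the ratio was 0.919 in B16–IL-33 Treg. With at least 2 tag UMIs, the ratio was 1.242 in B16–IL-33 Treg (reversed). Without a mitochondrial limit, the nuclear over mitochondrial balance was 0.908 in CD8 over Tconv (reversed), 1.389 in Treg over Tconv, 0.929 in NKT over Tconv and 1.418 in myeloid over Tconv. Without an upper gene limit, the nuclear over mitochondrial balance was 1.204 in CD8 over Tconv, 1.280 in Treg over Tconv, 0.854 in NKT over Tconv and 1.217 in myeloid over Tconv. With a mitochondrial limit of 10%, the nuclear over mitochondrial balance was 0.846 in NKT over Tconv and 1.374 in myeloid over Tconv. At a fold of 1.5, members past the fold were 0 higher and 1 lower in CD8 over Tconv, 1 higher and 0 lower in Treg over Tconv, 1 higher and 4 lower in NKT over Tconv, 6 higher and 6 lower in myeloid over Tconv and 0 higher and 3 lower in B16–IL-33 Treg. With a minimum of 50 UMIs, members past the fold were 5 lower in Treg over Tconv. The shares of all genes at a fold of 1.5 or at a minimum of 50 UMIs were not counted. These counts of members therefore cannot be set against all genes. Without ribosomal protein and mitochondrially encoded genes in the denominator, members past the fold were 1 higher and 12 lower in Treg over Tconv, 7 lower in NKT over Tconv and 6 higher and 32 lower in myeloid over Tconv. The causes were not tested. Alternatives to the balance and to the denominator of the counts were chosen after the data were seen. With 1 library, counting error is the only error given, and variation between mice is unknown. Few UMIs of single genes were seen in NKT cells and in tagged cells.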

Other observations

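The 766 barcodes with more than 2500 detected genes had subunits at 38556 CPM, with 74.7% of them cycling and a balance of nuclear over mitochondrially encoded UMIs of 1.71 (1.70 to 1.72). The 1967 barcodes with 5% or more mitochondrially encoded UMIs had subunits at 14713 CPM.

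All 62 kept cells with the invariant alpha chain, whatever their class, had subunits at 21961 CPM (21327 to 22609) and a balance of 0.785 (0.755 to 0.816).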
